A study of Rubus idaeus with 6 samples.

Results

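Of 19951 gene models with deposited values in red raspberry (Rubus idaeus) axillary buds, 49 had reads only in ‘Wakefield’. They were chosen by a rule on the values themselves: 0 in each of the 3 ‘Heritage’ libraries and a normalized count of at least 10 in each of the 3 ‘Wakefield’ libraries. The size of the contrast between the cultivars was therefore fixed by the choice and is given as a description. No test of it is read as a result. The normalized count is the number of reads on a gene model divided by a size factor of its library. The same rule with the cultivars exchanged found 32 gene models read only in ‘Heritage’.

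‘Wakefield’ is a biennial-fruiting (BF) cultivar and ‘Heritage’ an annual-fruiting (AF) cultivar. Field plants of both stood at the same Motueka orchard and had standard care, and on November 5 axillary buds were picked from nodes 5 to 10 below the apex. The libraries are numbered 59, 60 and 61 for ‘Wakefield’ and 62, 63 and 64 for ‘Heritage’. With 1 cultivar for each habit, habit and cultivar cannot be told apart.

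Biennial-fruiting raspberries form flower buds on a first-year cane and fruit on it after winter, while annual-fruiting ones flower and fruit on the first-year cane. Cultivars of a crop species commonly differ in gene content as well as in gene expression, and RNA reads alone do not tell a gene that is missing from a gene that is silent. Reads were mapped to gene models of black raspberry (R. occidentalis), so that each here is a prediction made in another species, named by its chromosome (Ro01 to Ro07 for LG1 to LG7) and a number. In bulk buds, fewer cells of a type and less RNA per cell cannot be told apart.

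The 6 libraries held 7345603 to 14977596 reads on gene models, 34642928 over ‘Wakefield’ and 36217448 over ‘Heritage’. Library 60 was the shallowest and library 61 the deepest. At this depth 0 reads in ‘Heritage’ allow up to 3 reads over its libraries (95% limit for counting error only), a mean normalized count of 0.966. Markers could be looked for only among 1998 gene models of the intervals that the study mapped on LG3 and LG4. Of the bud and meristem markers, 3 of 10 were found there, and all had reads in every library: STM, which maintains the shoot meristem, at 1981 to 2733, the dormancy-associated DRM1 at 5252 to 10677 and the bud outgrowth regulator BRC2 at 31.0 to 85.4. The leaf markers found (2 of 11) were higher in ‘Wakefield’. A chlorophyll a/b binding protein gene (CAB) spanned 5046 to 8014 in ‘Wakefield’ and 2891 to 3998 in ‘Heritage’ (adjusted p = 0.0258 from limma), and a Rubisco small subunit gene (RBCS) 112 to 213 and 18.8 to 32.7 (adjusted p = 0.00324 from limma). No anther or pollen marker (0 of 4) was found in these intervals, and markers elsewhere in the genome could not be looked for. The part of leaf tissue in the results below was not tested.

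Before the results, the libraries themselves stood apart at gene models that separate the cultivars. A set without the 49 shows this: gene models with a ‘Heritage’ mean of at least 50 that were under 0.05 of that mean in both other ‘Wakefield’ libraries. Library 59 reached 0.05 or more of the ‘Heritage’ mean in 42 of 95 such gene models, library 60 in 0 of 53 and library 61 in 37 of 90. It reached 0.2 or more in 13 for library 59 and in 25 for library 61. Exchanging the cultivars, library 62 reached 0.05 of the ‘Wakefield’ mean in 10 of 66, library 63 in 2 of 58 and library 64 in 3 of 59. Libraries 59 and 61 thus held reads of gene models that library 60 nearly lacked. The study calls the libraries of a cultivar biological replicates. Whether the plants behind the ‘Wakefield’ libraries were of the same genotype was not tested, and it bears on what a mean, an SD or a p-value over these libraries measures. The counts of members, their spread, chromosomes, number series and neighbours are given below with and without library 61. Library 59 also stood apart here, and only counts of members and of limma calls are given without it.

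The gene models read only in ‘Wakefield’ were rare and mostly of low abundance. They were 0.294% of the 16679 gene models with at least 10 in each ‘Wakefield’ library, and those read only in ‘Heritage’ were 0.188% of the 16978 with at least 10 in each ‘Heritage’ library. Their ‘Wakefield’ means ran from 16.1 to 425 with a median of 37.6, against a median of 312 over all gene models with at least 10 in each ‘Wakefield’ library. The mean was under 20 in 9, from 20 to 50 in 22, from 50 to 100 in 12 and 100 or more in 6. Together they took 3109 reads in library 59, 2143 in library 60 and 2801 in library 61, and their normalized counts summed to 2920, 3333 and 2080. The smallest number of reads behind any of these values was 10. Set against the floor of 3 reads over the ‘Heritage’ libraries, their ‘Wakefield’ means were at least 16.6-fold to at least 440-fold higher, with a median bound of 39.0-fold.

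In limma, all 49 were higher in ‘Wakefield’, where 17.5% of all 17898 gene models tested were called higher and 16.0% lower at an adjusted p under 0.05. edgeR and DESeq2 on recovered reads also called all 49, where they called 19.6% and 18.6% of all gene models tested higher. All 49 also passed an adjusted p under 0.01 with a log2 fold change above 1, which 5.17% of the gene models tested did in that direction. Nothing is read from these counts, since the rule had set the contrast. On the log2(normalized count + 1) scale their differences reached 8.73 with a median of 5.05, beside a median of -0.01 over all gene models tested. Without library 61 limma also called all 49, which the rule had likewise set.

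**Figure D1:**
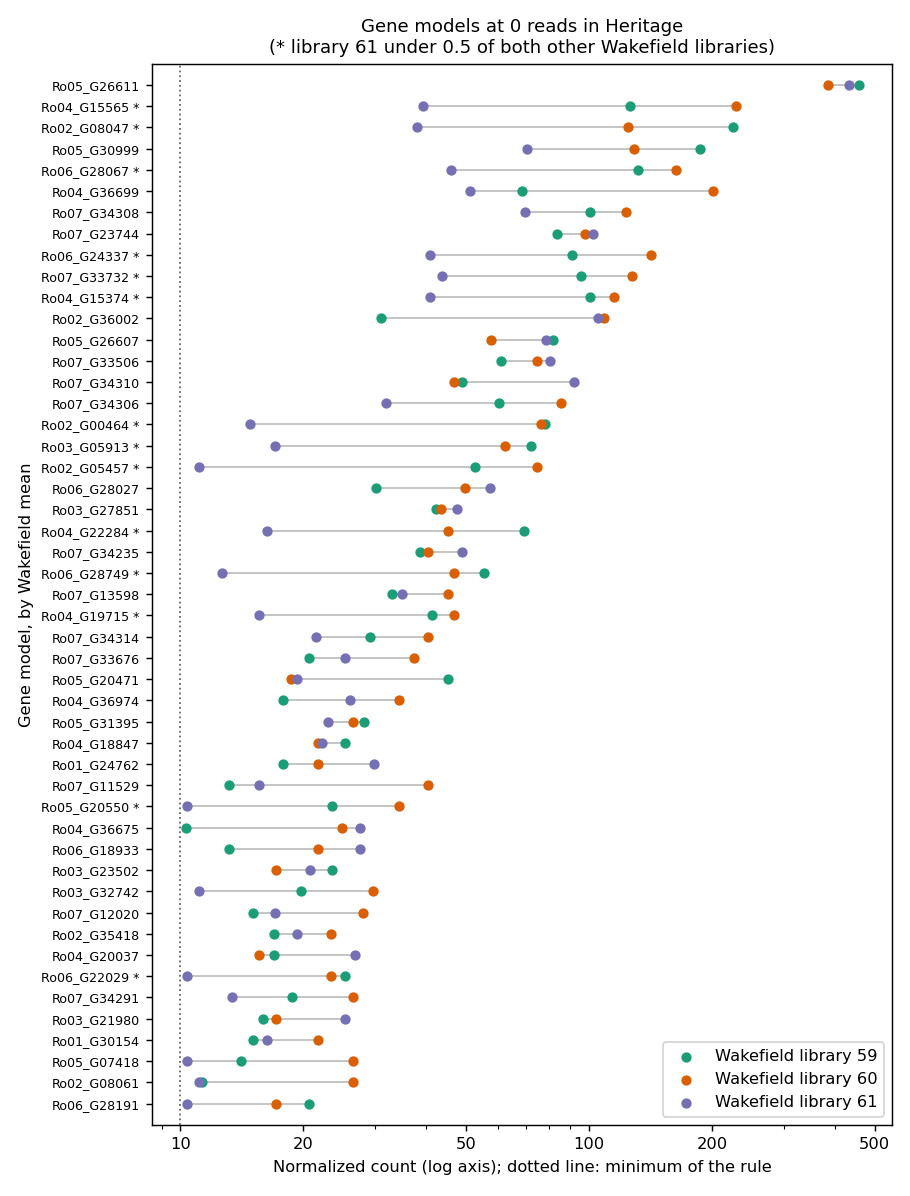
Normalized counts (log axis) of the 49 gene models read only in ‘Wakefield’, sorted by their ‘Wakefield’ mean, with 1 point per ‘Wakefield’ library and a grey line from the lowest to the highest. Ro05_G26611 stands alone at the top with 384 to 457, and in the 14 gene models marked with an asterisk library 61 lies under 0.5 of both other libraries.

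Ro05_G26611 was the most abundant by far. Its normalized counts were 457 in library 59, 384 in library 60 and 432 in library 61, a mean of 425 ± 37.2 (SD, n = 3), at least 440-fold above the ‘Heritage’ floor. All 3 libraries were high and close together, with an SD of 0.0877 of the mean. It lay 4 rows from another of the 49 in the deposited table, Ro05_G26607, with 81.7, 57.5 and 78.7 in libraries 59, 60 and 61. The 3 gene models between them in table order had reads in both cultivars. Of these, Ro05_G25286 had a mean of 69.6 ± 13.9 (SD, n = 3) in ‘Wakefield’ and 52.7 ± 4.83 (SD, n = 3) in ‘Heritage’ (adjusted p = 0.135 from limma). The reads only in ‘Wakefield’ were thus not continuous in table order. Positions on LG5 were not known, so whether these gene models lie between Ro05_G26611 and Ro05_G26607 on the chromosome was not tested. Ro05_G26607 and the models between were singled out after their values were seen.

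The next in abundance were uneven. Ro04_G15565 had normalized counts of 126, 229 and 39.4 in libraries 59, 60 and 61, a mean of 131 ± 94.7 (SD, n = 3). Ro02_G08047 had 225, 124 and 37.9, a mean of 129 ± 93.9 (SD, n = 3). Ro05_G30999 had 187, 129 and 70.5, and Ro06_G28067 had 132, 163 and 46.0. Library 61 was the lowest in all of these, while library 59 or library 60 was the highest. Their ranges overlap one another, so that their order below Ro05_G26611 does not hold beyond the spread among libraries.

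At the lower end the counts stood just above the minimum. Ro06_G28191 had 20.7, 17.1 and 10.4 in libraries 59, 60 and 61, Ro02_G08061 had 11.3, 26.4 and 11.1, and Ro05_G07418 had 14.1, 26.4 and 10.4. In 5 of the 49 the lowest library lay within 1 of the minimum, and the smallest such value was 10.3. Just outside the rule, with 0 in ‘Heritage’, were Ro06_G09752 with 12.2, 23.3 and 9.65, Ro06_G22031 with 34.8, 43.5 and 9.65, and Ro05_G11470 with 15.0, 9.33 and 14.9. A further 51 gene models met the ‘Wakefield’ minimum but had 1 to 3 reads over the ‘Heritage’ libraries. The highest of these were Ro03_G15663 with 398, 509 and 149 against 1 ‘Heritage’ read, Ro04_G27303 with 196, 243 and 385 against 1, and Ro02_G35341 with 218, 226 and 189 against 3. Some of the strongest separations between the cultivars thus lay outside the rule by a single read, and the boundary of the set is one of counting.

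Spread among the ‘Wakefield’ libraries was wide. The SD was a median of 0.410 of the mean over the 49, against 0.169 over the other gene models of the same abundance range (those with at least 10 in each ‘Wakefield’ library). In the gene models read only in ‘Heritage’ it was 0.162, close to the 0.174 of their abundance range. Here and below, gene models of a range were not matched in level within it. The 49 ran from 16.1 to 425 with a median of 37.6, and the part of counting error in the spread was not tested. Over libraries 59 and 60 alone the medians were 0.230 for the 49 and 0.137 for the others. The most even were Ro03_G27851 with 42.3, 43.5 and 47.5 in libraries 59, 60 and 61 (0.0617 of the mean) and Ro04_G18847 with 25.4, 21.8 and 22.3 (0.0840), followed by Ro05_G26611. The most uneven was Ro04_G36699 with 68.6, 201 and 51.2 (0.765), followed by Ro02_G08047 (0.726) and Ro04_G15565 (0.722).

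Library 61 was often the low one. It was the lowest library in 25 of the 49, library 59 in 17 and library 60 in 7. In 14 of the 49 (28.6%) library 61 lay under 0.5 of both other libraries, against 2.08% of the 9727 gene models of their abundance range. The corresponding counts were 2 for library 59 (1.30% of the range) and 0 for library 60 (0.771%). Over these 14 the count in library 61 was 0.175 to 0.427 of the mean of the other libraries, with a median of 0.299, and over the other 35 the median was 0.945. Library 61 had the most reads of the 6.

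The 14 lay on 6 chromosomes, 4 of them on LG4, 4 on LG6, 3 on LG2 and 1 each on LG3, LG5 and LG7. The lowest ratios were those of Ro02_G05457 with 52.6, 74.7 and 11.1 in libraries 59, 60 and 61, and of Ro02_G00464 with 78.0, 76.2 and 14.9, both singled out after their values were seen. The opposite unevenness was seen in Ro02_G36002, with 31.0 in library 59 against 109 and 105, and in Ro04_G36675, with 10.3 against 24.9 and 27.5, the pair in which library 59 was the low one. Both were likewise named after their values were seen.

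The rule itself removed more gene models of this kind. With library 61 left out, 76 gene models met it, and 27 of these had been lost only through library 61, where they spanned 0 to 9.65. Of the 76, 35 (46.1%) lay under 0.5 of both other libraries in library 61, against 3.78% of the 10140 gene models of their abundance range by libraries 59 and 60. Leaving out library 59 instead added 4 gene models and leaving out library 60 added 2. The median of libraries 59 and 60 over the 76 was 26.4.

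A low count in library 61 also went with the size of the difference between the cultivars in gene models outside the 49. Its share was 22.5% of 80 gene models of the abundance range whose ‘Heritage’ mean was above 0 and up to 0.05 of the ‘Wakefield’ mean, 11.1% of 54 from 0.05 to 0.1, 9.57% of 209 from 0.1 to 0.25 and 3.01% of 864 from 0.25 to 0.5. It was 0.922% of 3903 whose lower mean was at least 0.8 of the higher. Where ‘Heritage’ was higher the share rose again, to 4.33% of 601 at a ratio of 2 to 4 and 5.38% of 186 at ratios over 4. For library 59 the share in the same classes stayed between 0.717% and 5.26%. The decline towards like means and the later rise are a description, since the ‘Wakefield’ mean that sets the classes holds library 61. Annotated gene models with this pattern, chosen after their values were seen, were ABCB9 (Ro03_G33071), an ATP-binding cassette transporter, with 51.7, 57.5 and 18.6 in ‘Wakefield’ against 3.14, 4.54 and 5.71 in ‘Heritage’, and EDA28 (Ro03_G17166), named for embryo sac development in Arabidopsis, with 21.6, 29.5 and 10.4 against 3.14, 4.54 and 2.86.

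**Figure D2:**
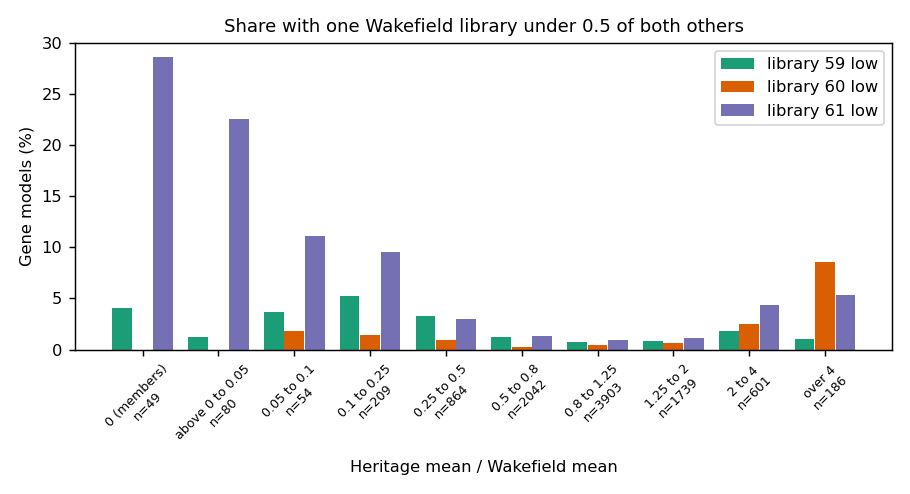
Share of gene models (%) in which a ‘Wakefield’ library lies under 0.5 of both other ‘Wakefield’ libraries, by the ratio of the ‘Heritage’ to the ‘Wakefield’ mean, over gene models of the abundance range of the 49 (n under each class). The share for library 61 falls from 28.6% at a ratio of 0 to 0.922% where the cultivars are nearly alike. It rises again to 5.38% at ratios over 4, where library 60 is the one most often low.

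Gene models on LG6 that are neighbours in the order of the deposited table show the same unevenness in both directions. The stretch was singled out after its values were seen. Ro06_G28749, of the 49, had 55.4, 46.7 and 12.6 in libraries 59, 60 and 61, and the adjacent Ro06_G28748 had 212, 159 and 42.3 with 1 ‘Heritage’ read (log2 difference 6.52, standard error 0.64, adjusted p = 0.00188 from limma). In both, library 61 held a similar low fraction of the mean of libraries 59 and 60, 0.247 and 0.228. On the other side Ro06_G28750 had 15.0, 6.22 and 123 in ‘Wakefield’ and 263, 201 and 214 in ‘Heritage’ (adjusted p = 0.0543 from limma). Ro06_G28751 had 34.8, 15.6 and 122 in ‘Wakefield’ and 257, 233 and 240 in ‘Heritage’ (adjusted p = 0.0363 from limma). Library 61 therefore lay between the other ‘Wakefield’ libraries and ‘Heritage’ at each of these gene models, low where ‘Heritage’ had at most 1 read and high where ‘Heritage’ was high. Ro06_G16832 and Ro06_G16835, in the same stretch, had 544 to 719 and 1078 to 1625 in ‘Wakefield’ and 675 to 760 and 920 to 1056 in ‘Heritage’, without such an order.

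**Figure D3:**
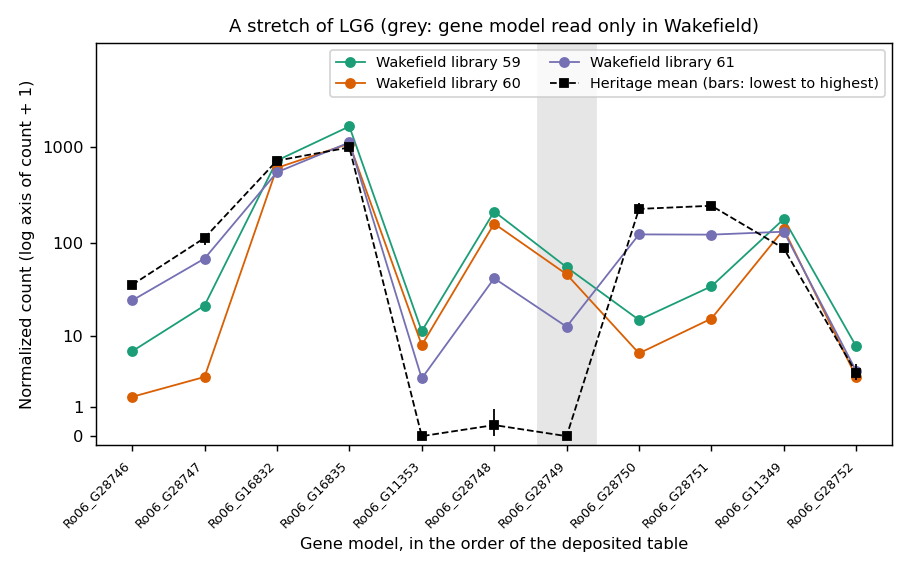
Normalized counts (log axis of count + 1) of 11 gene models of LG6 in table order, with a line for each ‘Wakefield’ library and a dashed line for the ‘Heritage’ mean. At Ro06_G28748 and Ro06_G28749 library 61 drops towards ‘Heritage’ and at Ro06_G28750 and Ro06_G28751 it rises towards it.

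The same held for Ro04_G15565 and the gene model 1 row before it, Ro04_G15926, which was singled out after its values were seen. Ro04_G15926 had 1895, 2148 and 604 in libraries 59, 60 and 61 and 6.28, 1.82 and 5.71 in ‘Heritage’, a log2 difference of 8.03 (standard error 0.60, adjusted p = 0.000898 from limma). Library 61 was at 0.299 of the mean of the other ‘Wakefield’ libraries there and at 0.222 of it in Ro04_G15565. Within 5 rows of the 14 gene models low in library 61, 8 of 140 gene models (5.71%) were over 2-fold higher in library 61 than in both other ‘Wakefield’ libraries, with a ‘Heritage’ mean over 2-fold higher than theirs too, against 8 of 306 (2.61%) around the other 35 and 1.35% of all deposited gene models. Of the 8, 4 lay in the LG6 stretch around Ro06_G28749 described above. In the other direction, low in library 61 with a ‘Heritage’ mean under 0.1 of that of libraries 59 and 60, there were 3 (2.14%) around the 14 and 5 (1.63%) around the other 35, beside 0.466% of all. These shares are a description of neighbourhoods chosen by the rule.

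By chromosome, LG7 held the most of the 49, with 13 (26.5% of the 49, beside 12.7% of the deposited gene models), LG4 held 9 (18.4% and 13.1%), and LG5 and LG6 held 7 each (14.3% of the 49, beside 13.8% and 18.5%). LG2 held 6 (12.2% and 15.1%), LG3 held 5 (10.2% and 15.0%) and LG1 held 2 (4.08% and 11.7%). Per 1000 deposited gene models this was 5.12 on LG7, 3.45 on LG4 and 0.859 on LG1, against 2.46 over all. Those read only in ‘Heritage’ were also most numerous on LG7, with 9 of 32. With a minimum of 20 in place of 10, LG7 held 41.7% of 24 gene models, and without library 61 it held 18 of 76 (23.7%).

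Positions were known for few of them. The supplementary table of the mapped intervals, held here for 1998 of its 2343 gene models, covers 35037390 to 43717084 bp of LG3 and 1794 to 7439980 bp of LG4 in the R. occidentalis assembly ORUS 4115-3 v3.0. It lists 1 of the 49, Ro03_G05913, which starts at 41739332 bp of LG3, and gives no Arabidopsis orthologue or description for it, while 1785 of the 1998 have an orthologue. The functions and orthologues of the 49 are thus not known here, and no group of described gene models could be compared with them. All 9 on LG4 came after the listed stretch of LG4 in the order of the deposited table.

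Ro03_G05913 had normalized counts of 72.3, 62.2 and 17.1 in libraries 59, 60 and 61. It was high in libraries 59 and 60 and among the 14 low in library 61. Of the nearest flanking gene models, Ro03_G05912, 6029 bp away and without an orthologue, showed the opposite: 0 in every ‘Wakefield’ library and 41.9, 22.7 and 7.62 in ‘Heritage’. It did not reach the limma filter (10 or more in at least 3 libraries), and DESeq2 on the recovered reads called it lower in ‘Wakefield’ (adjusted p = 1.53e-05). Of the other 3 flanking gene models 0 were called by limma. Ro03_G05911, 7427 bp away, had a log2 difference of -0.27 (adjusted p = 0.206 from limma), SUGAR TRANSPORTER 1 (STP1, Ro03_G05915), a monosaccharide importer of Arabidopsis, 30368 bp away, -0.36 (adjusted p = 0.288), and Ro03_G05918, 46196 bp away, 0.24 (adjusted p = 0.146). The gene models read in a single cultivar were thus next to each other here, in opposite directions, between gene models read in both.

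Since positions were few, neighbours of the other gene models were taken from the order of the deposited table, a choice made after the data were seen. Where positions were known, table order followed the genome: the rank correlation of row and position was 0.974 on LG3 and 0.979 on LG4 across gene models, and adjacent rows lay a median of 31734 bp apart, 92.8% of them within 100 kb. Of 181 tested gene models next to the 49 (the nearest 2 on either side), 43 (23.8%) were called higher in ‘Wakefield’ by limma and 35 (19.3%) lower, against 17.5% and 16.0% of all gene models tested. Their log2 differences had a median size of 0.61, beside 0.38 over all, while the median difference was 0.04. Near the 49 the median size was thus larger, with calls in both directions. Levels were not matched between the 181 and all gene models tested, and the part of low counts was not tested. The 43 include the 7 called higher in the LG7 stretch described below. Leaving out ‘Heritage’ library 62, 63 or 64 gave 19, 17 and 20 of the 181 called lower. Of all gene models tested, 8.54%, 7.49% and 10.7% were then called lower. Without library 64 the share near the 49 was thus close to that of all. Without library 61 there were 36 higher and 33 lower, with 14.7% and 13.0% of all gene models tested.

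**Figure D4:**
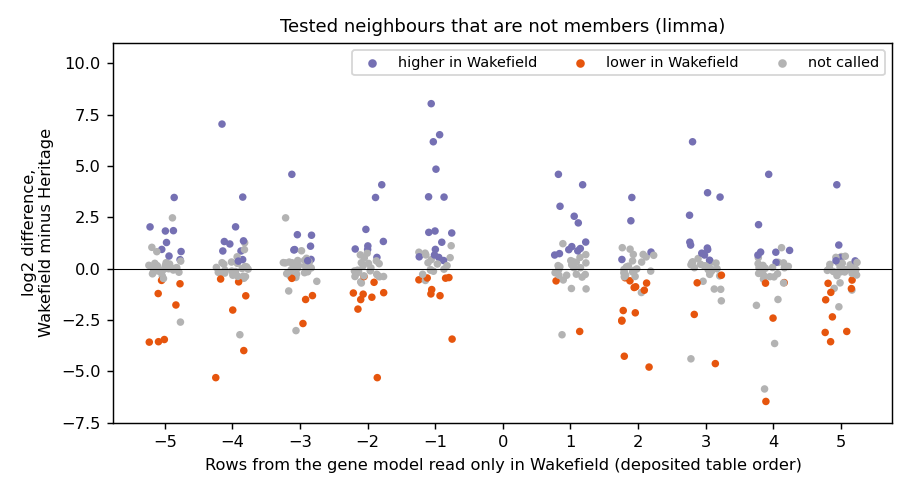
Log2 difference (‘Wakefield’ minus ‘Heritage’, limma on log2 of normalized count + 1) of tested gene models up to 5 rows before or after a gene model read only in ‘Wakefield’, which sits at 0 on the horizontal axis. Most points lie near 0, and those called lie on both sides, from 8.03 for Ro04_G15926 to -6.46 for Ro03_G16006.

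Gene models nearly without reads in a cultivar were also counted beside the 49, in either direction. Of 446 other gene models within 5 rows, 15 (3.36%) had at most 3 ‘Heritage’ reads and a ‘Wakefield’ mean of at least 10, beside 0.633% of all gene models outside the 49. In the opposite direction, 7 of the 446 (1.57%) had at most 3 ‘Wakefield’ reads and a ‘Heritage’ mean of at least 10, beside 0.556% of all. Within 10 rows the counts were 22 and 13 of 864. The first kind lay within 5 rows of 15 of the 49 and the second within 5 rows of 7. With the rule on libraries 59 and 60 alone, which makes 76 members, 11 of 627 other gene models within 5 rows (1.75%) were of the first kind, beside 0.548% of all outside the 76, and 11 (1.75%) of the second, beside 1.11%. These windows were chosen after the data were seen, and some overlap one another.

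Some of these stood within a few rows of each other, and they were singled out after their values were seen. Ro03_G32742, with 19.7, 29.5 and 11.1 in libraries 59, 60 and 61, was followed within 4 rows by Ro03_G32746, read only in ‘Heritage’ (37.7, 18.2 and 19.0), and by Ro03_G16006, with 0, 0 and 2.23 in ‘Wakefield’ against 148, 108 and 135 in ‘Heritage’. On LG7, Ro07_G11531 was read only in ‘Heritage’ (29.3, 46.3 and 41.9) and lay 2 rows from Ro07_G11529 (13.2, 40.4 and 15.6 in ‘Wakefield’) and 4 rows from Ro07_G33676 (20.7, 37.3 and 25.2). Between and beside them Ro07_G11526, with 24.4, 20.2 and 4.46, and Ro07_G33675, with 18.8, 12.4 and 2.97, had no ‘Heritage’ reads but missed the minimum in library 61. Gene models read only in ‘Wakefield’ and only in ‘Heritage’ thus lay within a few rows of each other. Ro06_G28027 (30.1, 49.8 and 57.2 in ‘Wakefield’) had a neighbour of the opposite kind 1 row away, Ro06_G28026, with 0, 3.11 and 0 in ‘Wakefield’ and 17.8, 20.9 and 11.4 in ‘Heritage’.

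The largest cluster of the 49 by table order was on LG7. The closest pair by row was Ro07_G11529 and Ro07_G33676, named above, at rows 12533 and 12535 of the deposited table. Only 3 of the 49 had another within 3 gene model numbers, the run Ro07_G34306, Ro07_G34308 and Ro07_G34310, and 9 lay within 10 rows of another. Where positions were known, such close numbers from 28006 up lay a median of 46998 bp apart, 69.8% of them within 100 kb. For lower numbers the median was 6306 bp, with 100% within 100 kb. Distances within the run itself are not known. Ro07_G34306 had 60.1, 85.5 and 31.9 in libraries 59, 60 and 61, Ro07_G34308 had 100.5, 123 and 69.8, and Ro07_G34310 had 48.8, 46.7 and 92.1. Library 61 was the lowest for Ro07_G34306 and Ro07_G34308 and the highest for Ro07_G34310, so that these neighbours did not vary together. With Ro07_G34291 (18.8, 26.4 and 13.4) and Ro07_G34314 (29.1, 40.4 and 21.5), 5 of 22 gene models in consecutive rows were read only in ‘Wakefield’.

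Other gene models of that stretch were called as well. The stretch was defined after its values were seen, from the first to the last of the 5. Of the other 17, 12 were tested by limma: 7 were called higher in ‘Wakefield’, 1 lower and 4 were not called, and all 7 also passed an adjusted p under 0.01 with a log2 fold change above 1. In 7 of the 17 the ‘Heritage’ mean was under 0.1 of the ‘Wakefield’ mean, among them Ro07_G34303, which was not tested. The share was 0.846% of the gene models tested outside the 49, a base that leaves out those not tested. Ro07_G34294, called higher, was not among these 7, with a ratio of 0.206. Without library 61 limma still called the 7 that it had called higher. In the 22 rows on either side, 10 of 40 tested gene models were called higher and 12 lower, and none was of the 49.

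Values in this stretch ran from absent to abundant. Ro07_G34313 had 114, 149 and 80.9 in ‘Wakefield’ and 0, 0.908 and 0.952 in ‘Heritage’, which is 2 reads (log2 difference 6.18, standard error 0.34, adjusted p = 0.000331 from limma). Ro07_G27199 was the most abundant, with 454, 460 and 430 in ‘Wakefield’ and 32.4, 30.0 and 39.0 in ‘Heritage’ (log2 difference 3.70, standard error 0.13, adjusted p = 5.1e-05 from limma). Both cultivars had reads of Ro07_G27199, and the groups did not overlap. Ro07_G34298 went the other way, with 1.88, 0 and 11.1 in ‘Wakefield’ and 34.5, 41.8 and 36.2 in ‘Heritage’ (log2 difference -3.55, standard error 0.86, adjusted p = 0.0258 from limma). Ro07_G26929 and Ro07_G25975, at places 5 and 7 of the 22, differed little. Their means were 241 ± 38.4 and 209 ± 29.9 in ‘Wakefield’ and 245 ± 19.96 and 212 ± 28.1 in ‘Heritage’ (SD, n = 3 each). These gene models at like levels in both cultivars lay between Ro07_G34291, at place 1, and Ro07_G34306, at place 11, both of the 5. These were named after their values were seen.

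**Figure D5:**
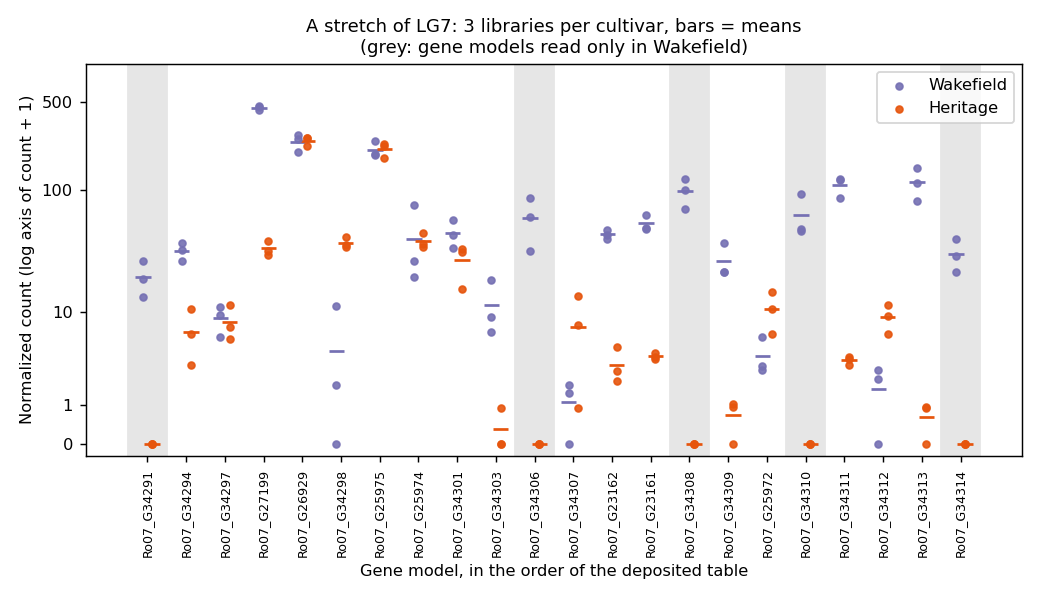
Normalized counts (log axis of count + 1) of the 22 gene models from Ro07_G34291 to Ro07_G34314 in table order, with 3 points per cultivar and a bar at the mean. Grey bands mark the 5 gene models at 0 in ‘Heritage’, and Ro07_G26929 and Ro07_G25975 are at the same level in both cultivars.

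The numbers in the names were also looked at. Gene models of the deposited table fall into 2 series: up to 27976 the number does not follow table order within the whole table (rank correlation -0.001), and from 28006 to 37303 it rises along the table. What made the second series is not stated. It holds 19.0% of the deposited gene models and 19.0% of those in the abundance range, but 22 of the 49 (44.9%) and 15 of the 32 read only in ‘Heritage’ (46.9%). Without library 61 it held 32 of 76 (42.1%). The share was thus close in both directions, and with and without library 61. In the table of the mapped intervals, gene models without an Arabidopsis orthologue made up 10.5% of the second series and 10.7% of the first. The medians of the ‘Wakefield’ means were 40.4 for the 22 and 34.5 for the other 27.

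The kit used for the libraries keeps strand, but whether the read counting used strand is not stated. Where gene models overlap or lie close together, as Ro06_G28748 and Ro06_G28749 may, reads of one could have been counted for the other. Near-identical copies of a gene could likewise share reads, and no sequence of the 49 was at hand to look for copies.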

How the data were processed

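Reads from 3 ‘Wakefield’ and 3 ‘Heritage’ bud libraries were trimmed by the authors with Trimmomatic, filtered for ribosomal RNA by SortMeRNA, mapped by STAR to R. occidentalis gene models and compared with DESeq2 (versions and counting program not given in the sources used here). Each signal value the authors deposited is a gene model's read number after division by its library's size factor. Values were whole multiples of the value of 1 read (0.743 to 1.56) for 100% of values within a tolerance of 0.001, so reads were recovered. The authors' fold change and p-value columns were not used. Gene models with 10 or more in 3 or more libraries were fitted with limma 3.58.1 (R 4.3.3) as log2(value + 1). Calls had a Benjamini-Hochberg adjusted p under 0.05 over every gene model fitted. The alternatives were edgeR 4.0.16 and DESeq2 1.42.0 on recovered reads, other pseudocounts, filters, thresholds and each library left out among the gene models tested with all 6. The scripts were tested on simulated data. Python 3.11.15 made the tables. P-values set the difference between the cultivars against the spread between these libraries, which limma moderates over all gene models fitted. Members and lists were chosen with earlier results of these data known.

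Named are every member with a position, the 5 highest and 3 lowest by ‘Wakefield’ mean, the 3 largest and 3 smallest by SD over mean, members of runs of close numbers, flanking gene models, and those just outside the rule. Any other name is said to be chosen after its values were seen. Markers and descriptions come from the supplementary table of the mapped intervals, matched by Arabidopsis locus. Table order, library 61 and the LG6 and LG7 stretches were looked at after the data were seen.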

Additional observations from a re-analysis of the deposited data

How the results depend on the processing

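The number of gene models read only in ‘Wakefield’ depends on the rule. It was 24 with a minimum of 20, 7 with 50 and 1 with 100, and 74 with at most 1 and 100 with at most 3 ‘Heritage’ reads. Leaving out each library in turn gave 51 to 76, the highest without ‘Wakefield’ library 61. A minimum of 5 gave 72 and a minimum of 10 reads gave 54. LG7 held 41.7% with a minimum of 20. With numbers that differ by 1, 0 had a close neighbour in number, and with a difference of at most 10 there were 6. Those low in library 61 were 9 under 0.4 of the other libraries, 22 of 72 with a minimum of 5 and 6 of 24 with a minimum of 20.

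Over all gene models tested, limma called 1742 to 3018 higher and 1341 to 2753 lower when each library was left out in turn, and 926 and 796 at an adjusted p under 0.01 with a size over 1 on the log2 scale. On recovered reads edgeR with TMM scaling called 3503 higher and 3183 lower, and DESeq2 3705 and 3377. The rule had set that all 49 were called by limma, edgeR and DESeq2. These called 17.5%, 19.6% and 18.6% of all gene models tested higher in ‘Wakefield’. Around Ro03_G05913, the nearest 5 on either side held 1 called higher and 1 called lower (Ro03_G05919 and Ro03_G33137), and DESeq2 called 1 of the nearest 2 lower. By table order, leaving out each library gave 29 to 44 higher and 17 to 34 lower, the nearest 5 gave 92 and 75 of 439, and the nearest 1 gave 29 and 16 of 94. The causes were not tested.

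No pairing of ‘Wakefield’ with ‘Heritage’ libraries is described, so no paired analysis was made. Depth limits the smallest members. The fewest reads of any member in a single ‘Wakefield’ library were 10, and 0 reads in ‘Heritage’ allow up to 3. With 3 libraries per cultivar and unlike ‘Wakefield’ libraries, membership near the minimum of 10 is uncertain.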
